A study of Homo sapiens with 2 samples.

Results

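Extracellular proteases of the matrix metalloproteinase (MMP) and ADAM families were followed in hypoxic MDA-MB-231 cells, a triple-negative human breast cancer line in long use. The selection asked for protein-coding genes of the array's probe table with a symbol of an integrin alpha or beta chain, a laminin chain, an MMP, an ADAM or an ADAMTS protease. RefSeq lists 100 such genes, and 38 of them are named in the probe table used here, 19 MMP and 19 ADAM genes, out of 11916 named protein-coding genes. None of the 26 integrin, 12 laminin and 19 ADAMTS genes is named there, nor are MMP2, MMP3, MMP7, MMP9 and ADAM7, so these were not analysed here. The set is therefore called by what it holds, the metalloproteinase genes. Genes around integrins and laminins were taken from separate lists further on.

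Cells were treated with compound 1, which the study directs at microRNA miR-544, or with a miR-544 antagomir (a chemically modified antisense strand against that microRNA) 24 hours before 5 days of hypoxia at under 1% oxygen. Each treatment has 1 array, and the series' design text says that 3 samples were pooled, without saying whether this means 3 cultures per treatment. Both groups share the cell line and the hypoxia, and no untreated or normoxic array was used here. Values are deposited log signals, read as log2 from their range since the labels do not state the base, 1 per transcript cluster (the probes of one transcript) and array, with medians of 5.62 in the compound 1 pool and 5.59 in the antagomir pool. Replicate arrays are lacking, so no error and no p-value can be given, and every difference, compound 1 minus antagomir, describes these arrays, named after the pooled RNA they measured. Probes differ in how brightly they bind, so differences were read for the same probes between the arrays, and levels of different genes served only to sort genes by brightness and to add up marker lists. In pooled RNA of whole cultures, fewer cells that carry a transcript and less of it per cell cannot be told apart.

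MMPs and ADAMs are zinc-dependent proteases of the metzincin group. MMPs are made as inactive proenzymes and cut collagens, laminins and other matrix proteins, and tissue inhibitors of metalloproteinases (TIMPs) block them. ADAMs sit in the cell membrane, where those with an active protease domain release the outer parts of growth factors, cytokines and receptors, and several bind integrins through a disintegrin domain. In breast cancer cells these enzymes are studied for invasion through the basement membrane and for the supply of ligands of the epidermal growth factor receptor.

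The microRNA of the treatment labels is listed in RefSeq as miR-544a and is shown with its seed, bases 2 to 8, in capitals. Promoter windows, 250 bases before to 50 after the start of transcription, are shown for the 5 measured metalloproteinase genes that were lower in the compound 1 pool in the deposited values and under all 3 other scalings. In these windows capitals mark ACGTG or GCGTG on either strand, the core word of hypoxia response elements, which also lies in the E-box CACGTG. All are RefSeq sequences on GRCh38.p14, at chr14:101048712-101048733, plus strand for the microRNA, chr14:22836335-22836634, plus strand for MMP14, chr10:133276819-133277118, minus strand for ADAM8, chr15:58749658-58749957, minus strand for ADAM10, chr2:9555781-9556080, minus strand for ADAM17 and chr5:157575726-157576025, minus strand for ADAM19.
hsa-miR-544a: aUUCUGCAuuuuuagcaaguuc
MMP14: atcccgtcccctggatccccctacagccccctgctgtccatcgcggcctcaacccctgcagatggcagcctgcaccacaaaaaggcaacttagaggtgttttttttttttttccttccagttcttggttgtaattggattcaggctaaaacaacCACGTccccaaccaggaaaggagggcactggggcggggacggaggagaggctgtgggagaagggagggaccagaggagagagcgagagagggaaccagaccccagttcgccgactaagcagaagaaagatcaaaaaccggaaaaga
ADAM8: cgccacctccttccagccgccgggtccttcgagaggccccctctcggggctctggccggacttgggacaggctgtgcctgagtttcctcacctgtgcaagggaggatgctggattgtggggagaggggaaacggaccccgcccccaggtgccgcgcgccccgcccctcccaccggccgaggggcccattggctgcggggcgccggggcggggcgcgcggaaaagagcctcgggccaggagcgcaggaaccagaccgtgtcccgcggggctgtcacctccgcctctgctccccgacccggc
ADAM10: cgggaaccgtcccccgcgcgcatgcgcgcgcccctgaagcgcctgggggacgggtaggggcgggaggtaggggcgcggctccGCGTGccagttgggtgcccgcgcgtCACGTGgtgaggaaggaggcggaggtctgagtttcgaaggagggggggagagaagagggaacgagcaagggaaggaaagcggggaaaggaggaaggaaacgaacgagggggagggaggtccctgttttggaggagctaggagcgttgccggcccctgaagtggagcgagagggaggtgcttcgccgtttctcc
ADAM17: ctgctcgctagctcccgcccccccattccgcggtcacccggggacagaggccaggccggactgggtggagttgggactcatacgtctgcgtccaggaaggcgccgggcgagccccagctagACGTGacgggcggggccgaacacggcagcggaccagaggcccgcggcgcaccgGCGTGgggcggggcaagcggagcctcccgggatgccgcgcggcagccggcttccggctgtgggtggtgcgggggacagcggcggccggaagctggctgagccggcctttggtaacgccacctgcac
ADAM19: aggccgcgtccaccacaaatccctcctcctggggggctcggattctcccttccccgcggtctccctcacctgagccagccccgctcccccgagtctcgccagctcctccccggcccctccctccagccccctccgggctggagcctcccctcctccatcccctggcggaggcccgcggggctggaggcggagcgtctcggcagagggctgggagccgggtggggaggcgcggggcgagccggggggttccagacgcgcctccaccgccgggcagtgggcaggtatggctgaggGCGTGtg
The word starts at base 155 of the window in MMP14, at bases 83, 108 and 109 in ADAM10, at bases 122 and 175 in ADAM17 and at base 294 in ADAM19, counted from the 5′ end, and it is not among the letters of the ADAM8 window. The promoter table holds 23 of the 38 metalloproteinase genes, and 11 of these windows (47.8%) contain the word, against 54.7% of the 22199 windows of protein-coding genes and 48.4% of all 35116 windows of this length. The other metalloproteinase genes, MMP1 among them, have no window there and were not searched. The AP-1 word TGACTCA, searched on both strands, was in 0 of the 23 windows and in 4.01% of those of protein-coding genes and 4.95% of all windows. For a word this rare, 23 windows are too few to read the 0 as a lack. These matches describe letters and not binding.

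A gene counted as measured when the higher of its array values reached the 50th percentile of mean levels over all clusters, a log2 level of 5.60. This held for 19 of the 38 genes, 10 MMPs and 9 ADAMs, while 80.4% of all named protein-coding genes were measured. The measured genes were MMP1, MMP11, MMP14, MMP15, MMP17, MMP19, MMP21, MMP23B, MMP24, MMP25, ADAM8, ADAM9, ADAM10, ADAM11, ADAM12, ADAM15, ADAM17, ADAM19 and ADAM33. The other 19 stood between 3.35 and 5.56 in the compound 1 pool and between 3.51 and 5.45 in the antagomir pool, and without a detection call such values cannot be told from background. At the boundary, MMP21 was just inside at 5.70 in the compound 1 pool and 5.40 in the antagomir pool, and MMP28 just outside at 5.56 and 5.45 in the same pools.

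**Figure D1:**
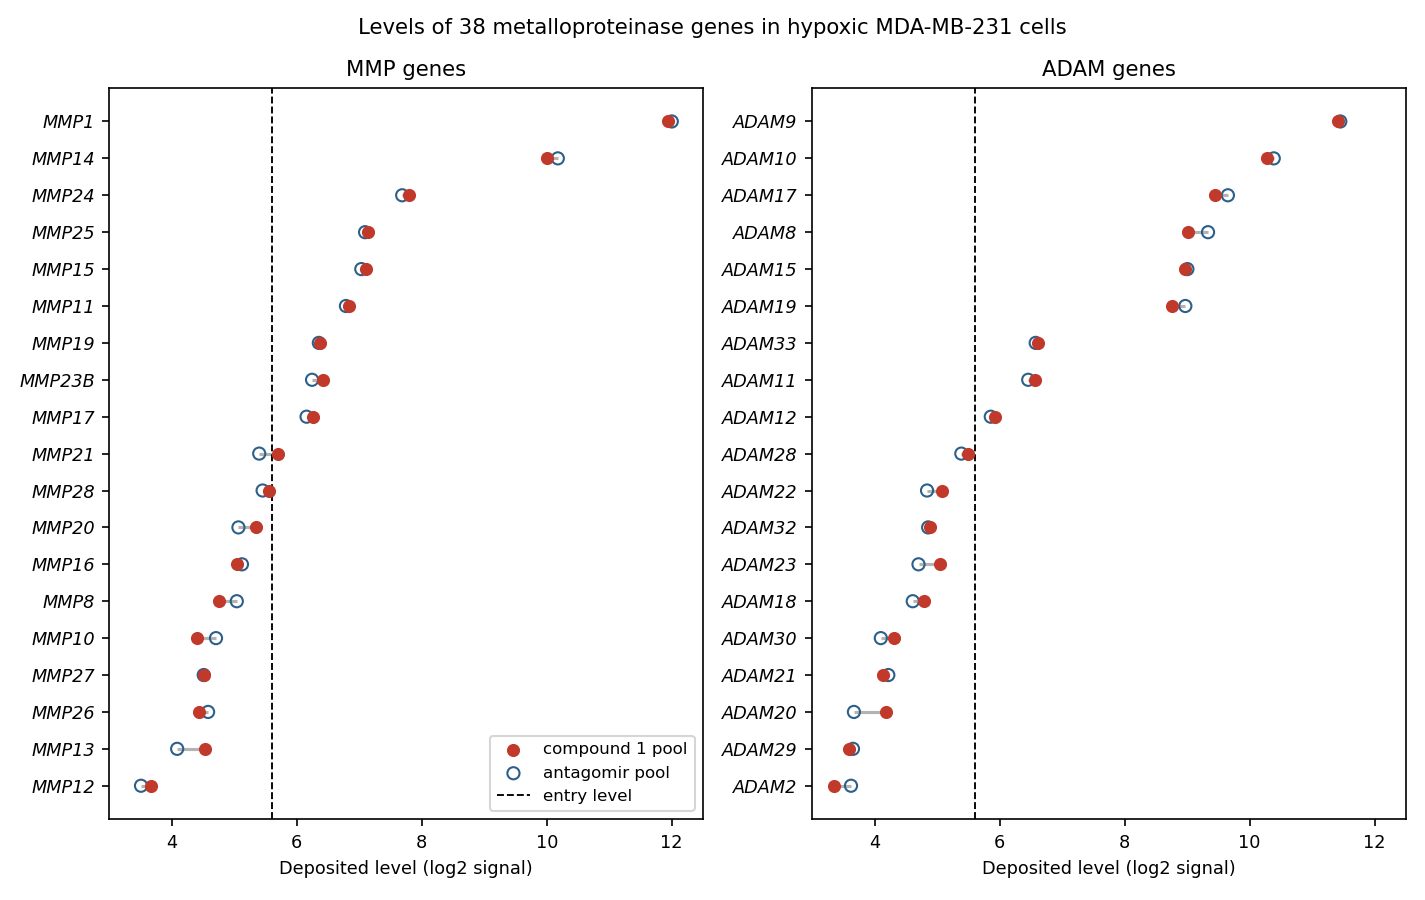
Deposited log2 signal of the 19 MMP genes (left) and 19 ADAM genes (right), with filled points for the compound 1 pool, open points for the antagomir pool and a dashed line at the entry level of 5.60. Each row is 1 gene and the points of a gene lie close together, with MMP1, MMP14, ADAM9 and ADAM10 far right of the line and 19 genes left of it.

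MMP1, the interstitial collagenase that cuts fibrillar collagen, had a level of 11.94 in the compound 1 pool and 12.00 in the antagomir pool. The difference of -0.059 lay near the median difference of -0.072 over the 500 measured protein-coding genes nearest in level, whose robust SD was 0.099. This robust SD (scaled median absolute deviation) stands as a yardstick throughout and is not replicate error. In the RefSeq assembly MMP1 lies in a row of 9 neighbouring MMP genes on chromosome 11, 7 of them named here, and of those 7 it was the only one measured. On the compound 1 array its neighbours MMP20, MMP27, MMP8, MMP10, MMP12 and MMP13 stood at 5.34, 4.51, 4.76, 4.40, 3.66 and 4.53. Their values in the antagomir pool were, in the same gene order, 5.06, 4.51, 5.04, 4.71, 3.51 and 4.08. Both arrays thus gave the same picture along the row, with 1 gene past the entry level and 6 under it.

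Membrane-type MMPs are held at the cell surface, and 5 of the 6 named were measured. MMP14, which activates the proenzyme of the gelatinase MMP2 and degrades collagen around migrating cells, had a level of 10.00 in the compound 1 pool and 10.18 in the antagomir pool. It was lower by 0.17 in log2, while genes at its level had a median difference of -0.087 and a robust SD of 0.12. The other measured members, all under a level of 8, were slightly higher in the compound 1 pool. Of the 5755 measured protein-coding genes under that level, 48.1% were higher. Robust SDs at the levels of these members ran from 0.17 (MMP24) to 0.20 (MMP17). MMP15 was at 7.11 on that array and 7.03 in the antagomir pool, and MMP17, which is anchored by a lipid, at 6.26 and 6.16 in the same pools. MMP24 has a pair of measured clusters, at 7.80 and 6.67 in the compound 1 pool, against 7.69 and 6.46 in the antagomir pool, so both differences (0.12 and 0.21) pointed the same way. The lipid-anchored MMP25 has 3 clusters, of which 2 entered, with differences of 0.050 and 0.22, while the third, under the entry level, was at 0.13. MMP24 and MMP25 are the only ones of the 38 genes with more than 1 cluster, so no other member has this check within an array. MMP16 was not measured, at 5.04 in the compound 1 pool and 5.12 in the antagomir pool.

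The stromelysin-like MMP11, which stromal cells of carcinomas are known to make, was at 6.83 in the compound 1 pool and 6.79 in the antagomir pool. Of 8 MMPs of other kinds, 3 were measured. MMP21, known for its part in left-right patterning of the embryo, had the largest positive difference among the measured metalloproteinases at 0.30 (1.23-fold), but genes at its level had a robust SD of 0.25 and its antagomir value lay under the entry level. MMP23B was at 6.42 in the compound 1 pool and 6.24 in the antagomir pool, and it has a near-identical pseudogene copy, MMP23A, so the assignment of its signal is uncertain. MMP19 was at 6.37 and 6.35 in the same pools, a difference of 0.021 that turned to -0.0081 after centring. Under the entry level the tooth enamel protease MMP20 was higher by 0.27, MMP13 by 0.44 and MMP12 by 0.16 in the compound 1 pool, MMP8 was at -0.28, MMP10 at -0.31 and MMP26 at -0.15, and MMP27 held the same value, 4.51, on both arrays.

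Among 9 ADAMs with an active protease domain and expression in many body tissues, 8 were measured. ADAM8, a sheddase known from leukocytes and invasive tumours, had the largest difference of all measured metalloproteinases. Its level was 9.01 in the compound 1 pool and 9.33 in the antagomir pool, a difference of -0.32 (1.25-fold), with a robust SD of 0.13 and a median of -0.078 for genes at its level. After quantile normalization the difference was -0.25 and after cyclic loess -0.25, which is just short of 1.2-fold. ADAM17, which releases tumour necrosis factor and several ligands of the epidermal growth factor receptor, was at 9.45 in the compound 1 pool and 9.65 in the antagomir pool (-0.20). ADAM19, which sheds neuregulins, was at 8.76 and 8.97 in the same pools (-0.21). ADAM10, which cuts Notch receptors and the amyloid precursor protein, was at 10.28 in the compound 1 pool and 10.38 in the antagomir pool (-0.10). Genes at the level of ADAM10 had a median difference of -0.086 and a robust SD of 0.11. These 4 ADAMs and MMP14 kept the negative sign after centring, quantile normalization and cyclic loess.

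ADAM9, another sheddase of growth factors, was at 11.42 in the compound 1 pool and 11.45 in the antagomir pool. ADAM15, whose disintegrin domain carries the integrin-binding RGD motif in humans, was at 8.97 and 9.00 in the same pools. Their differences of -0.032 and -0.035, like that of MMP1, turned positive after quantile normalization and cyclic loess, to between 0.0062 and 0.040. ADAM12, which cuts binding proteins of insulin-like growth factors, was at 5.93 in the compound 1 pool and 5.86 in the antagomir pool, and ADAM33 at 6.61 and 6.57. The remaining protease of this kind, ADAM28, reached the entry level in neither pool, with values of 5.49 and 5.38.

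ADAM11, ADAM22 and ADAM23 lack the zinc-binding motif and serve as adhesion and receptor proteins in the nervous system. All 3 were higher in the compound 1 pool, ADAM11 by 0.10, ADAM22 by 0.25 and ADAM23 by 0.34. Only ADAM11 was measured, at 6.56 in the compound 1 pool and 6.45 in the antagomir pool. Genes at its level had a median difference of 0.023 and a robust SD of 0.20. Of 2501 named protein-coding genes with a mean under the entry level, 1512 were higher too. The 7 ADAMs known mainly from testis and sperm (ADAM2, ADAM18, ADAM20, ADAM21, ADAM29, ADAM30 and ADAM32) were all under the entry level, between 3.35 and 4.89 in the compound 1 pool and between 3.62 and 4.85 in the antagomir pool. In this group ADAM20 had the widest gap, at 4.18 in the compound 1 pool and 3.66 in the antagomir pool, and ADAM2 was at -0.26. On chromosome 8 the RefSeq assembly places ADAM9, ADAM32, ADAM18 and ADAM2 side by side, and of these 4 ADAM9 alone was measured.

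No metalloproteinase gene differed by 1.5-fold between the arrays. Among the 9584 measured protein-coding genes 0.532% did so. Past 1.2-fold, a descriptive bound of 0.26 in log2, 2 of the 19 measured genes remained, ADAM8 lower and MMP21 higher in the compound 1 pool, where 14.3% of measured protein-coding genes passed in either direction. The count is thus near the background. MMP21 entered through its compound 1 value alone. With both values required at the entry level, 1 of 18 members passed, against 1193 of 9226 protein-coding genes. With no filter on level, 9 of the 38 passed 1.2-fold, 5 higher and 4 lower, against 17.1% of all named protein-coding genes (8.04% higher and 9.05% lower). Of these 9, 7 came from the 19 unmeasured members. Such a difference is common at low levels, where 757 of 2501 named protein-coding genes with a mean under the entry level passed it. ADAM8, ADAM19 and MMP24 lay more than 1 robust SD from the median of genes at their level, and the other 16 measured members lay within it. The share of all measured genes beyond that distance was not counted, so these genes are not read as standing out.

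**Figure D2:**
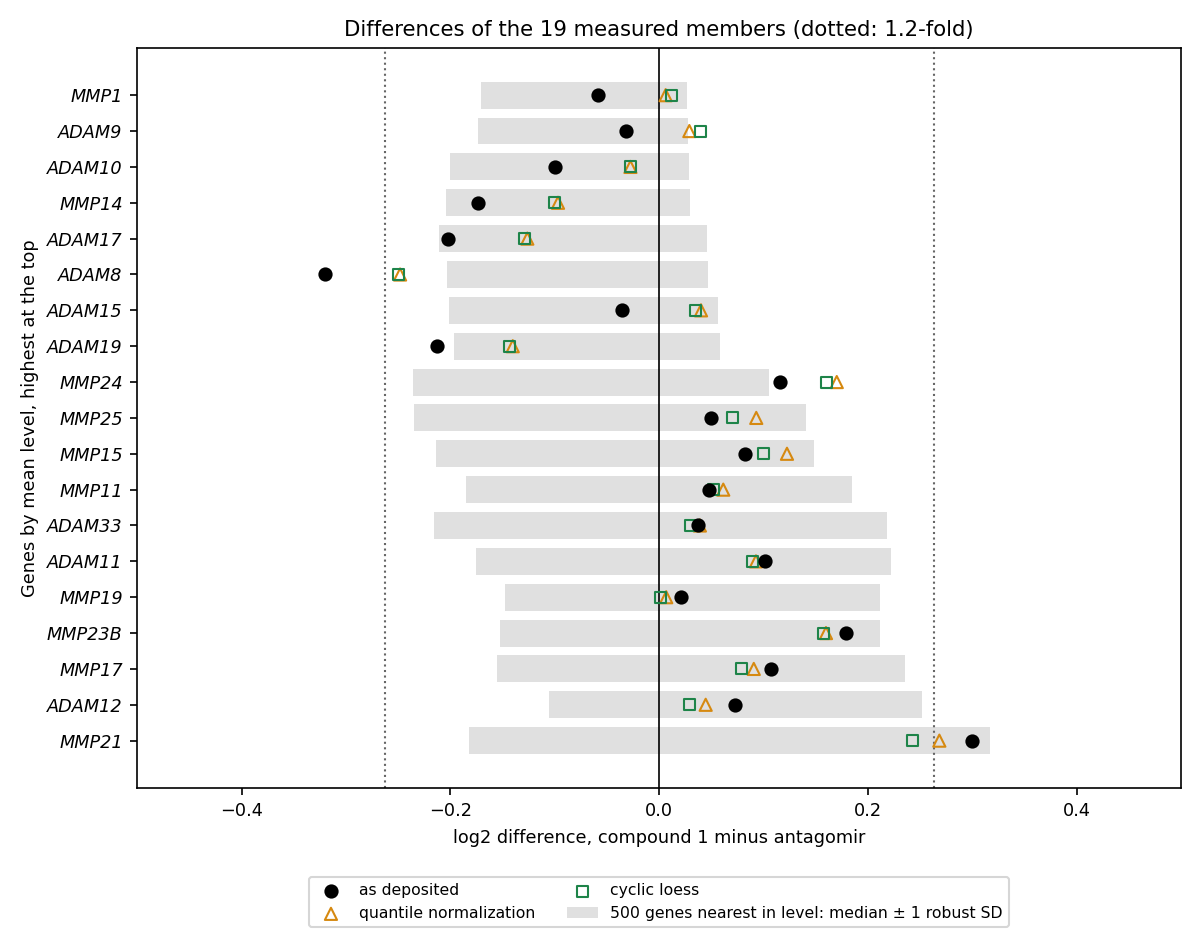
Log2 difference, compound 1 minus antagomir, of the 19 measured metalloproteinase genes in the deposited values (filled) and after quantile normalization and cyclic loess (open), with grey bars for the median ± 1 robust SD of the 500 protein-coding genes nearest in level. The bars come from the deposited differences, so only filled points are read against them. ADAM8 lies left of its grey bar at -0.32 as deposited, and is at -0.25 after either scaling. Most other filled points lie inside their bars.

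The direction of the differences went with the level. All 8 metalloproteinase genes with a mean of 8 or more (MMP1, MMP14, ADAM8, ADAM9, ADAM10, ADAM15, ADAM17 and ADAM19) were lower in the compound 1 pool, with a median of -0.14, and 71.5% of the 3829 protein-coding genes at such levels were lower too, with a median of -0.076. The 11 measured members under 8 were all higher, with a median of 0.082, against 48.1% of the 5755 measured protein-coding genes under 8, whose median was -0.0040. Under quantile normalization 5 of the 8 were lower, against 52.0% of genes at such levels, and all 11 stayed higher, against 52.2% of genes under 8. Cyclic loess gave the same 5 and 11, against 52.3% lower and 49.3% higher, and centring gave 8 lower and 10 higher, against 79.6% lower and 42.7% higher. The bound of 8 was placed after the values were seen, in the gap between ADAM19 and MMP24. That gap is where the sign of the members turns in the deposited values. The bound was thus chosen at a full split, and the counts on either side of it only describe that choice. Over all 19 measured genes the median was 0.037, with 8 lower (42.1%), and over all measured protein-coding genes it was -0.041, with 58.9% lower. The part of the level trend in the difference between these groups was not tested.

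**Figure D3:**
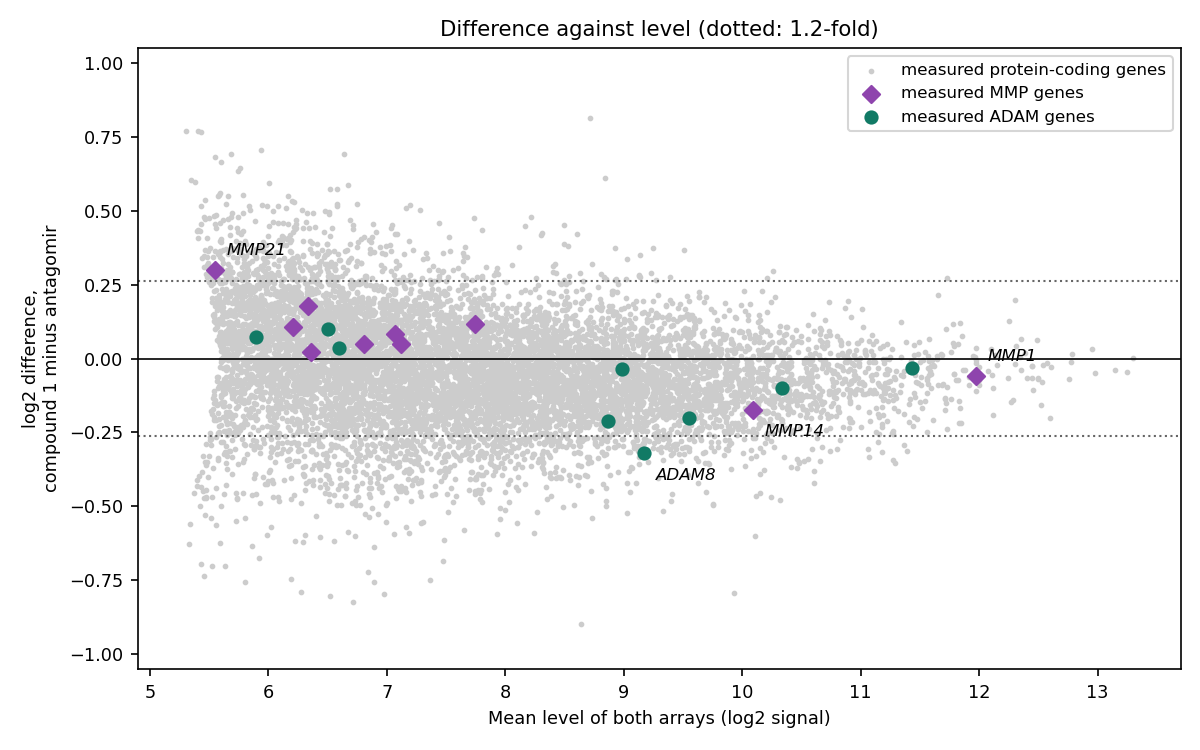
Log2 difference, compound 1 minus antagomir, against the mean level of both arrays for 9584 measured protein-coding genes (grey), with the measured MMP genes as diamonds and ADAM genes as circles. The 8 coloured points at a level of 8 or more lie under 0 and the 11 at lower levels lie above it. This bound was placed, after the values were seen, where the sign turns.

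By family, 2 of the 10 measured MMPs were lower and 8 higher, with a median of 0.066 (0.037 after centring, 0.092 under quantile normalization and 0.075 under cyclic loess). Of the 9 measured ADAMs, 6 were lower and 3 higher, with a median of -0.035 that turned to 0.029 under quantile normalization and 0.030 under cyclic loess. Of all measured protein-coding genes 58.9% were lower in the deposited values. Their median moved too, from -0.041 to 0.0020 and -0.0054 under the same 2 scalings. The ADAMs hold 6 of the 8 genes at a level of 8 or more, and the MMPs 2. The difference between the families was not tested.

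Around these proteases 7 further lists were read, each to be set beside the median over all measured protein-coding genes under the same scaling. That median was -0.041 as deposited, -0.071 after centring, 0.0020 under quantile normalization and -0.0054 under cyclic loess. Of 14 listed protease inhibitors 8 are named and 6 were measured, 1 of them past 1.2-fold, where the background was 14.3% in either direction, with a median difference of 0.050. TIMP1 was lower, at 10.50 in the compound 1 pool and 10.67 in the antagomir pool (-0.17), and TIMP3 was at -0.10. TIMP2 was at 10.90 and 10.88 in the same pools, and its difference of 0.023 became slightly negative after centring. TIMP4 was higher in the compound 1 pool, at 6.55 against 6.15 in the antagomir pool (1.32-fold), and stayed past 1.2-fold after either normalization. RECK, a membrane-anchored inhibitor of MMPs, was higher by 0.083.

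A further list of 24 genes holds mostly other proteases of the cell surface and the pericellular space. Of these 24 genes, 17 are named and 15 were measured, with 2 past 1.2-fold higher and 2 lower. The background for that bound was 5.23% higher and 9.12% lower. DPP4, a membrane dipeptidase that trims chemokines and incretins, was at 6.40 in the compound 1 pool and 5.89 in the antagomir pool (1.42-fold). CTSL, the lysosomal and secreted cathepsin L, was at 8.46 in the compound 1 pool and 7.98 in the antagomir pool, a 1.39-fold difference (0.48 in log2, and 0.54 with cyclic loess or 0.55 with quantile normalization). Genes at the level of CTSL had a robust SD of 0.16, and those at the level of DPP4 one of 0.20. Heparanase, HPSE, which is not a protease and cuts heparan sulfate chains, was lower, at 7.10 in the compound 1 pool and 7.43 in the antagomir pool (1.26-fold). The serine protease HTRA1 was at -0.27, and at -0.20 under quantile normalization and cyclic loess, short of 1.2-fold. FURIN, the convertase that removes the propeptide of MMP14 and of many ADAMs, was at 9.18 in the compound 1 pool and 9.22 in the antagomir pool, and its difference of -0.039 turned positive under quantile normalization and cyclic loess.

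Of 30 listed substrates and partners of ADAM proteases 27 are named and 26 were measured, with a median of -0.029 (0.0032 after cyclic loess). Past 1.2-fold 2 of the 26 were lower in the compound 1 pool and 0 higher, near the background of 9.12% lower. Betacellulin, BTC, a ligand of the epidermal growth factor receptor, was at 5.99 in the compound 1 pool and 6.33 in the antagomir pool, and the chemokine CXCL16, which ADAM10 is known to shed, was at 5.82 and 6.11 in the same pools. The highest differences were those of the growth factor epiregulin, EREG (0.19), and of the interleukin 6 receptor gene IL6R (0.18). Among regulators of ADAM17, RHBDF1 was at -0.11 and RHBDF2 held the same value of 8.38 on both arrays.

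Of 39 listed genes around the integrin adhesion complex 29 are named and all 29 were measured. Of these, 16 were lower and 13 higher, where 58.9% of all measured protein-coding genes were lower. The list median of -0.070 shrank to -0.0073 after quantile normalization and to -0.0032 with cyclic loess. Past 1.2-fold 5 were lower (LIMS1, TRIP6, FERMT1, SHARPIN and TNS2) and 0 higher, where the background was 9.12% lower and 5.23% higher. LIMS1, the adaptor PINCH that joins integrin-linked kinase to the adhesion, was at 6.28 in the compound 1 pool and 6.72 in the antagomir pool (1.35-fold), and it shares sequence with close paralogs, so the source of its signal is uncertain. The zyxin family member TRIP6 was at 8.99 and 9.29 in the same pools. Kindlin FERMT1, an integrin activator of epithelial cells, was at 8.72 in the compound 1 pool and 8.99 in the antagomir pool. LIMS1 alone of these 5 stayed past 1.2-fold under quantile normalization and under cyclic loess, where LPP, at -0.26 in the deposited values and -0.27 under both, was the other gene past it. Talin genes pointed the other way, with TLN2 at 0.15 and TLN1 at 0.062, and PTK2B was at 0.13, while PTK2, the focal adhesion kinase, was at -0.16 and vinculin, VCL, at -0.21.

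Matrix ligands of integrins and laminins were represented by 10 measured of 30 listed genes, 13 of them named. Their median of 0.12 (0.093 after centring and 0.16 after either normalization) was the highest of the 7 lists. Of the 10, 7 were higher and 3 lower, where 58.9% of all measured protein-coding genes were lower. NTN4, a laminin-related netrin of basement membranes, was at 8.95 in the compound 1 pool and 8.66 in the antagomir pool. HSPG2, the basement membrane proteoglycan perlecan, was at 9.28 in the compound 1 pool and 9.00 in the antagomir pool. These 2 of 10 were past 1.2-fold, where the background was 5.23% higher, but neither was after centring, at 0.26 for NTN4 and 0.25 for HSPG2. With quantile normalization NTN4 was at 0.36 and HSPG2 at 0.35. Thrombospondin THBS1 was higher by 0.21 and fibronectin FN1 by 0.054, while tenascin TNC was at -0.20 and vitronectin VTN at -0.21. None of the listed collagen genes is named in the probe table used here.

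Of 20 listed laminin receptors and integrin partners 16 are named and were measured, 0 of them past 1.2-fold against the background of 14.3%, with a median of -0.032 that turned to 0.030 under quantile normalization and 0.022 under cyclic loess. The collagen receptor DDR1 was highest (0.18), followed by the tetraspanin CD81 (0.087), and the tetraspanins CD82 (-0.20) and TSPAN4 (-0.14) were lowest. Of 14 listed ADAMTS-like genes and substrates of ADAMTS proteases 13 are named and 10 were measured, with a median of 0.021 that turned to -0.0080 after centring and -0.0054 after cyclic loess. The proteoglycan aggrecan, ACAN, was the 1 gene of 10 past 1.2-fold, near the background of 14.3%, at 5.35 in the compound 1 pool, which is under the entry level, and 5.71 in the antagomir pool. It was followed by ADAMTSL4 (-0.12). At the other end neurocan, NCAN, was at 0.25 and the cartilage matrix gene COMP at 0.21.

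**Figure D4:**
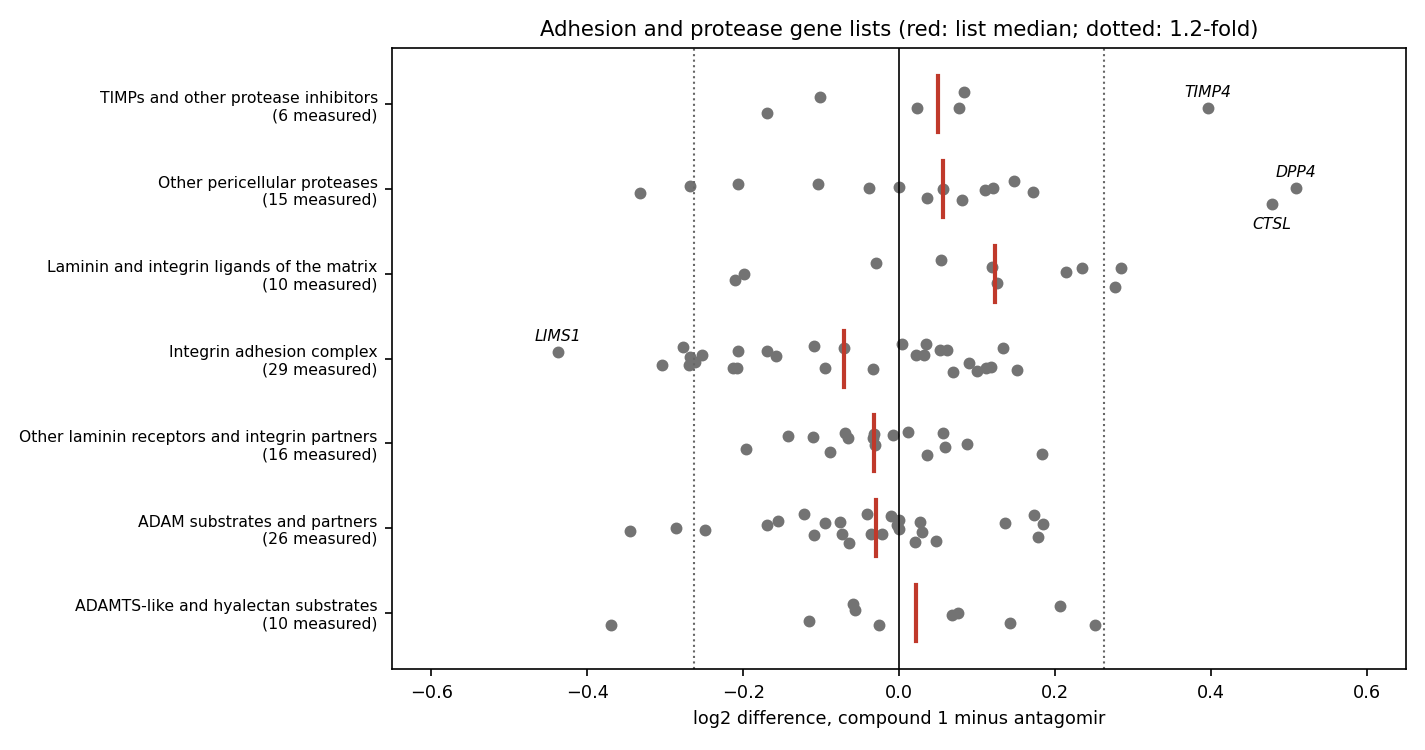
Log2 difference, compound 1 minus antagomir, of the measured genes of 7 lists around the metalloproteinases, 1 point per gene, with the list median in red and 1.2-fold dotted. Of the labelled genes, TIMP4, DPP4 and CTSL lie right of the bound and LIMS1 left of it. Further genes without a label lie past it on both sides, NTN4 and ACAN among them. The medians lie between -0.070 and 0.12.

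The label of the line was checked on marker genes. Of 19 listed genes of mesenchymal-like breast cancer lines 12 are named and 11 were measured, among them AXL at 12.77 in the compound 1 pool and 12.78 in the antagomir pool, and VIM at 10.49 and 10.61. The hormone receptor genes ESR1 and PGR reached the entry level in neither pool. Of luminal genes, 10 of 12 named were measured, with SPDEF at 8.82 in the compound 1 pool and 9.28 in the antagomir pool, and KRT18 at 11.18 and 11.28. The counts of measured genes thus hardly separate the luminal from the mesenchymal-like list. Summed over named genes, the mesenchymal-like list was at 14.93 in log2 in the compound 1 pool and 14.97 in the antagomir pool. The luminal list was at 12.21 and 12.33 in the same pools. The general leukocyte marker PTPRC is not named here. Of markers of other cell types, 2 of 4 named leukocyte genes, 1 of 3 fibroblast genes and 5 of 6 endothelial genes were measured. Summed over all named genes of each of these other lists, measured or not, signals in log2 were 11.67, 6.97 and 11.71 in the compound 1 pool. In the antagomir pool they were 11.67, 6.70 and 11.65. CD68 was at 11.59 in the compound 1 pool and 11.60 in the antagomir pool, THY1 at 6.59 and 6.27, and ESAM at 11.47 and 11.43, in the same pools. Their part in the differences was not tested.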

How the data were processed

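Biotin-labelled cRNA from 5 µg of total RNA was hybridised to Affymetrix arrays, per the labels' protocols. The deposited table holds 1 log2 value per transcript cluster and array. How the submitters corrected, normalized and logged them is not stated in the labels. Folds assume base 2. Of 53617 clusters 16098 have 1 gene symbol in the platform's probe table, 0 have several and 37519 are unnamed here. All 16098 identifiers were found in RefSeq (GRCh38.p14), which gave gene types and neighbours; 0 symbols were updated.

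A cluster entered when its higher value reached the 50th percentile of mean levels, and the brightest entering cluster stood for each gene, which left 9584 protein-coding genes. No test was run. Values were named by rule: every member past 1.2-fold, the 3 highest and the extreme differences of each family, members with several clusters, and the 2 highest and 2 lowest genes of each list. A few further genes were named for their role, after their values were seen. The members and lists were chosen with earlier results of these data known, and the role classes and the bound of level 8 were set after values were seen. Alternatives were 3 scalings, 3 filters, 2 cluster choices and other folds. The number of arrays limits the precision. Cyclic loess came from limma 3.58.1 in R 4.3.3, and all else from numpy 2.4.6 and pandas 2.3.3 under Python 3.11.15.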

Additional observations from a re-analysis of the deposited data

How the results depend on the processing

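The 0 measured metalloproteinases past 1.5-fold stayed 0 in each direction under every scaling, filter, cluster choice and 2-fold. This was fixed in advance at 2-fold, with entry at the 75th percentile and with both values at the entry level. Cluster choice could alter only MMP24 and MMP25. The counts past 1.2-fold, 1 higher and 1 lower, were less stable. The higher count (MMP21) was 0 after cyclic loess, with entry at the 75th percentile, when both values had to reach the entry level, and at 1.3-fold. The lower count (ADAM8) was 0 after quantile normalization, after cyclic loess and at 1.3-fold. With no filter the counts were 5 higher and 4 lower among 38 genes, and with entry at the 75th percentile 11 genes were measured. The construction of the filters shows why they moved; for the scalings the cause was not tested. The median of the measured members ran from -0.059 (entry at the 75th percentile) to 0.042 (no filter), and that of the ADAMs from -0.15 (the same filter) to 0.032. All 143 single-gene values under alternatives moved by less than 1 robust SD of level neighbours, but filters and cluster choice could hardly alter them. No paired analysis was possible because only 1 array stands for each treatment.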

Other observations

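Genes with names like those of the metalloproteinases fell outside the selection because they do not code for a protein or are not proteases of these families. The pseudogene ADAM6 was at 6.55 in the compound 1 pool and 6.18 in the antagomir pool (0.37), while the pseudogene MMP23A was at 7.69 and 7.70 in the same pools. ADAMTS9-AS2, a long non-coding RNA antisense to ADAMTS9, was at 5.96 in the compound 1 pool and 5.48 in the antagomir pool (0.48). ADAMTS9 itself was not analysed here, and the labels do not say whether the probes tell the strands apart. ITGB3BP, a centromere protein gene named for binding an integrin, was at 5.95 in the compound 1 pool and 6.08 in the antagomir pool, and the integrin-binding adaptor gene ITGB1BP1 was at 7.76 and 7.74.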
